A study of Saccharomyces cerevisiae with 12 samples.

Results

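The 10 genes described here make the enzymes of purine nucleotide synthesis in Saccharomyces cerevisiae: the IMP dehydrogenase genes IMD2 (YHR216W), IMD3 (YLR432W) and IMD4 (YML056C), the GMP synthase gene GUA1 (YMR217W), and ADE1 (YAR015W), ADE2 (YOR128C), ADE4 (YMR300C), ADE12 (YNL220W), ADE13 (YLR359W) and ADE17 (YMR120C). They were taken by gene symbol from the array's annotation, 10 of the 5449 genes measured. Each of the 10 had 1 probe set. They were selected on results of these arrays, among them the low IMD2 signal of the YSBN2 chemostat arrays. Their levels and differences are therefore given as a description, with limma's call but no p-value.

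Transcripts were measured on 12 Affymetrix arrays in 4 groups of 3 biological replicates. The YSBN2 chemostat and YSBN2 batch groups were the prototrophic FY strain YSBN2, with disrupted ho alleles written ho::Ble/ho::HphMX4; the labels leave its ploidy and mating type unstated. The CEN.PK 113-7D chemostat and CEN.PK 113-7D batch groups were the prototrophic strain CEN.PK 113-7D of mating type a. Chemostats were glucose-limited, fed 7.5 g/L glucose with 0.3 g/L ethanol and diluted at 0.1 per h, and batch cultures started at 30 g/L glucose. All cultures were aerobic, at 30 °C and pH 5 in 4 L reactors. The cultures thus differed in medium as well as in growth mode, and a difference between chemostat and batch holds both. With the ploidy and mating type of YSBN2 unstated, a difference between strains cannot be told apart from one of ploidy or mating type. Values are log2 signals as deposited, so a difference of 1 is a doubling, and errors are SDs over 3 arrays for levels and limma standard errors for differences.

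Purine synthesis starts from phosphoribosyl pyrophosphate (PRPP), on which the purine ring is built step by step up to inosine monophosphate (IMP). From IMP the path divides into an AMP branch and a GMP branch, and IMP dehydrogenase takes the first and limiting step toward GMP. In yeast the transcription factors Bas1 and Pho2 together activate the ADE genes, and external adenine represses them. IMD2 is known as the IMP dehydrogenase gene that cells induce when GTP runs short, by choosing another transcription start site, and as the gene that gives resistance to the inhibitor mycophenolic acid.

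Array medians lay between 11.02 and 11.37, and 6.37% to 9.8% of the probe sets of an array had values under 4. HO, the disrupted gene, read 2.11 to 2.39 on the 6 YSBN2 arrays and 11.46 to 12.62 on the 6 CEN.PK 113-7D arrays. Of 7 genes specific to mating type a, 7 were lower in YSBN2 than in CEN.PK 113-7D in either culture (median difference -3.50 in chemostat and -7.59 in batch). Of 4 genes specific to mating type alpha, 1 was called higher in YSBN2 in chemostat (MF(ALPHA)1) and 1 in batch (SAG1). Over all probe sets 12.9% were called higher and 15.3% lower in YSBN2 in chemostat, and 18.5% higher and 10.5% lower in batch. The markers also differed between cultures within YSBN2. There 6 of the 7 a genes (median 2.65) and 2 of the 4 alpha genes were called higher in chemostat than in batch. In CEN.PK 113-7D 1 of the 7 was called higher and 1 lower, and 2 of the 4 higher. Over all probe sets 30.6% and 33.9% were called higher in chemostat. The reason was not tested. The third YSBN2 batch array stood apart from the other 2 of its group: 196 probe sets were 2 or more log2 units away from the others' mean, against 2 to 77 for any other array. On it 9 of the 10 purine genes read higher than on the other YSBN2 batch arrays, by a median of 0.30, while the median over all probe sets was -0.01. Where leaving out this array moved a culture difference of the 10 genes in YSBN2 by 0.1 or more, the value without it is also given.

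Of the 10 genes IMD2 had the widest range of signal. Its log2 signal was 3.61, 3.42 and 3.29 in YSBN2 chemostat, and 13.27, 12.95 and 13.14 in YSBN2 batch. On the CEN.PK 113-7D arrays it was 9.26, 9.65 and 10.06 in chemostat and 11.79, 11.65 and 11.91 in batch. All 4 groups were apart, with no overlap between neighbours, in the order YSBN2 batch, CEN.PK 113-7D batch, CEN.PK 113-7D chemostat and YSBN2 chemostat, and the 12 arrays spanned 9.98 log2 units. In YSBN2 chemostat only 5.6% to 7.14% of the probe sets read lower than IMD2, and in YSBN2 batch 81.9% to 85.1% did. In CEN.PK 113-7D those shares were 20.1% to 24.3% in chemostat and 62.1% to 66.5% in batch.

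The culture difference of IMD2, chemostat minus batch, was -9.68 ± 0.19 in YSBN2 and -2.13 ± 0.19 in CEN.PK 113-7D (4.37-fold lower in chemostat). The YSBN2 value corresponds to a signal 818-fold lower in chemostat, but the low side sat near the bottom of the arrays' range, where a signal carries little information on the transcript. With every value under 6 raised to 6 the YSBN2 difference was -7.12, and that of CEN.PK 113-7D stayed -2.13. Between strains IMD2 turned round with the culture. In chemostat it was lower in YSBN2 than in CEN.PK 113-7D by -6.21 ± 0.19, 74.3-fold, or by -3.66 with low values raised to 6. In batch it was higher in YSBN2, by 1.33 ± 0.19, 2.52-fold.

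The difference between the 2 culture effects of IMD2, YSBN2 minus CEN.PK 113-7D, was -7.55 ± 0.26 on the deposited scale, where the YSBN2 chemostat arm lies near the bottom of the range, and -4.99 with low values raised to 6. On the YSBN2 batch array that stood apart, IMD2 read 0.04 above the mean of the other 2. The IMD2 probe set has the suffix x_at, which marks a set that may also read similar genes. The probe sets of IMD3 and IMD4 have no such suffix. On the 3 arrays where the IMD2 set read 3.29 to 3.61, IMD3 read 14.18 to 14.31 and IMD4 10.16 to 10.37. IMD1, the other gene of the family, was not analysed here. The IMD2 set read 12.95 to 13.27 in YSBN2 batch and 11.65 to 11.91 in CEN.PK 113-7D batch, so it gave signal in either strain. Probe sequences were not used, so whether the set reads both strains alike, or also reads IMD1, was not tested.

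IMD3 had the narrowest range of the 3, 1.39 log2 units over the 12 arrays. Its log2 signal was 14.18, 14.19 and 14.31 in YSBN2 chemostat and 14.74, 14.72 and 15.09 in YSBN2 batch. In CEN.PK 113-7D it was 13.70, 14.06 and 14.10 in chemostat and 14.39, 14.62 and 14.75 in batch. Chemostat arrays lay below batch arrays in both strains, and the batch groups of the strains overlapped. The culture difference was -0.63 ± 0.14 in YSBN2, -0.50 without the third YSBN2 batch array, and -0.63 ± 0.14 in CEN.PK 113-7D. The strain differences, 0.27 ± 0.14 in chemostat and 0.26 ± 0.14 in batch, were not called.

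IMD4 differed between cultures more than any other of the 10 apart from IMD2 in YSBN2, and more than IMD2 in CEN.PK 113-7D. Its log2 signal was 10.20, 10.37 and 10.16 in YSBN2 chemostat and 13.54, 13.29 and 14.21 in YSBN2 batch. The CEN.PK 113-7D arrays gave 10.29, 10.92 and 10.94 in chemostat and 13.48, 13.62 and 13.32 in batch. Strain ranges overlapped within either culture, and the cultures were far apart in both strains. The culture difference was -3.44 ± 0.24 in YSBN2 (10.8-fold) and -2.76 ± 0.24 in CEN.PK 113-7D (6.77-fold). Without the third YSBN2 batch array, where IMD4 read 0.80 above the other 2, the YSBN2 value was -3.17. The strain differences of IMD4, -0.47 ± 0.24 in chemostat and 0.20 ± 0.24 in batch, were not called, and the second was -0.06 without that array. The 3 isozyme genes thus had unlike profiles over the 4 groups: IMD2 differed by strain and culture, IMD4 by culture, and IMD3 by less than 1 log2 unit in any comparison.

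**Figure D1:**
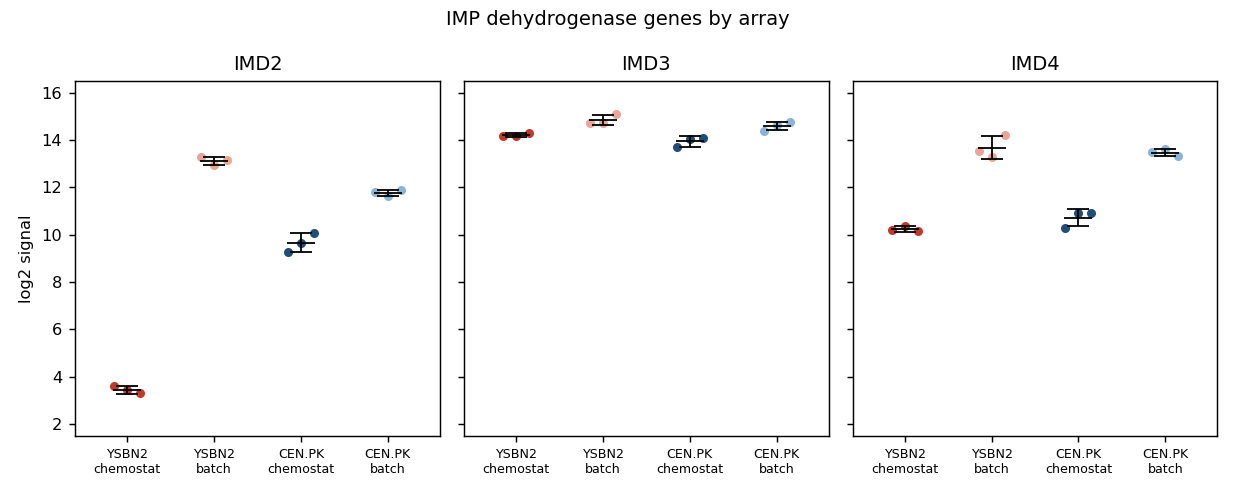
Log2 signal (vertical axis) of IMD2, IMD3 and IMD4 on each array of the 4 groups (horizontal axis, CEN.PK is CEN.PK 113-7D); points are arrays, the long bar is the mean and the whiskers are 1 SD over 3 arrays. IMD2 sits at 3.29 to 3.61 in YSBN2 chemostat and at 9.26 or above in the other groups, while IMD3 stays between 13.70 and 15.09 throughout.

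GUA1, whose product GMP synthase completes the GMP branch after IMP dehydrogenase, read 13.75, 13.82 and 13.67 in YSBN2 chemostat and 14.58, 14.53 and 14.64 in YSBN2 batch. In CEN.PK 113-7D it read 13.85, 14.09 and 14.01 in chemostat and 14.96, 14.94 and 14.97 in batch. The 4 groups did not overlap, and batch lay above chemostat in both strains. The culture difference was -0.84 ± 0.07 in YSBN2 and -0.97 ± 0.07 in CEN.PK 113-7D. YSBN2 was lower in either culture, by -0.24 ± 0.07 in chemostat and -0.38 ± 0.07 in batch. GUA1 therefore did not follow IMD2, which was higher in YSBN2 than in CEN.PK 113-7D in batch.

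ADE12, whose product adenylosuccinate synthase opens the AMP branch, differed by culture. It read 13.70, 13.65 and 13.66 in YSBN2 chemostat and 14.58, 14.54 and 14.71 in YSBN2 batch. On CEN.PK 113-7D arrays it read 13.65, 13.61 and 13.54 in chemostat and 14.65, 14.64 and 14.58 in batch. Its culture difference was -0.94 ± 0.06 in YSBN2 and -1.02 ± 0.06 in CEN.PK 113-7D, and its strain differences were 0.07 ± 0.06 in chemostat and -0.02 ± 0.06 in batch, neither called. The chemostat arrays of YSBN2 all lay above those of CEN.PK 113-7D, by little, and the batch groups overlapped. On the 2 branches that leave IMP, GUA1 and ADE12 thus had culture differences between -0.84 and -1.02.

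ADE4 makes the amidophosphoribosyltransferase of the first committed step of the path to IMP, and it had the widest range of the ADE genes, 2.74 log2 units over the 12 arrays. Its log2 signal was 10.85, 11.03 and 10.72 in YSBN2 chemostat and 12.51, 12.53 and 13.02 in YSBN2 batch. In CEN.PK 113-7D the signal was 11.89, 11.88 and 11.85 in chemostat and 13.36, 13.44 and 13.46 in batch. No 2 groups overlapped. The culture difference was -1.82 ± 0.13 in YSBN2, -1.65 without the third YSBN2 batch array, and -1.55 ± 0.13 in CEN.PK 113-7D. YSBN2 was lower than CEN.PK 113-7D by -1.01 ± 0.13 in chemostat and -0.74 ± 0.13 in batch (-0.90 without that array), the largest strain difference of the ADE genes in either culture.

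ADE2 and ADE1 make the enzymes of neighbouring steps in the middle of the path, AIR carboxylase and SAICAR synthetase. ADE2 read 12.93, 12.93 and 12.99 in YSBN2 chemostat, 14.30, 14.22 and 14.55 in YSBN2 batch, 13.40, 13.50 and 13.45 in CEN.PK 113-7D chemostat, and 14.24, 14.40 and 14.39 in CEN.PK 113-7D batch. The strains were apart in chemostat and overlapped in batch. Its culture difference was -1.40 ± 0.09 in YSBN2, -1.31 without the third YSBN2 batch array, and -0.89 ± 0.09 in CEN.PK 113-7D, and its strain difference was -0.50 ± 0.09 in chemostat and 0.01 ± 0.09 in batch. The difference between the culture effects of ADE2, -0.51 ± 0.12, was called, but it was lost in 4 of 18 alternatives, among them a common array median (-0.36).

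ADE1 read 13.34, 13.40 and 13.61 in YSBN2 chemostat, 14.01, 13.95 and 14.43 in YSBN2 batch, 13.85, 14.05 and 14.17 in CEN.PK 113-7D chemostat, and 14.45, 14.56 and 14.63 in CEN.PK 113-7D batch. YSBN2 batch overlapped CEN.PK 113-7D chemostat, and the other neighbours were apart. The culture difference was -0.68 ± 0.14 in YSBN2, -0.53 without the third YSBN2 batch array, and -0.53 ± 0.14 in CEN.PK 113-7D. YSBN2 was lower by -0.57 ± 0.14 in chemostat and by -0.42 ± 0.14 in batch, -0.57 without that array. The batch call was lost in 14 of 20 alternatives.

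ADE13 makes adenylosuccinate lyase, which acts both on the way to IMP and in the AMP branch, and ADE17 makes one of the 2 isozymes that complete IMP. ADE13 read 14.19, 14.09 and 14.02 in YSBN2 chemostat, 14.36, 14.41 and 14.70 in YSBN2 batch, 14.34, 14.13 and 14.19 in CEN.PK 113-7D chemostat, and 14.88, 14.83 and 14.81 in CEN.PK 113-7D batch. The chemostat groups overlapped, and YSBN2 batch lay below CEN.PK 113-7D batch. Its culture difference was -0.39 ± 0.10 in YSBN2, the smallest of the 10, and -0.29 without the third YSBN2 batch array. In CEN.PK 113-7D it was -0.62 ± 0.10, and the strain difference in batch was -0.35 ± 0.10 (-0.46 without that array). The difference between its culture effects, 0.23 ± 0.14, was not called, but it was called without that array (0.34).

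ADE17 read 14.52, 14.53 and 14.58 in YSBN2 chemostat and 15.38, 15.30 and 15.29 in YSBN2 batch. In CEN.PK 113-7D it read 14.67, 14.68 and 14.58 in chemostat and 15.31, 15.25 and 15.21 in batch. Its SD was at most 0.05 in any group. Its culture difference was -0.78 ± 0.06 in YSBN2 and -0.62 ± 0.06 in CEN.PK 113-7D, and its strain differences, -0.10 ± 0.06 in chemostat and 0.06 ± 0.06 in batch, were not called.

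**Figure D2:**
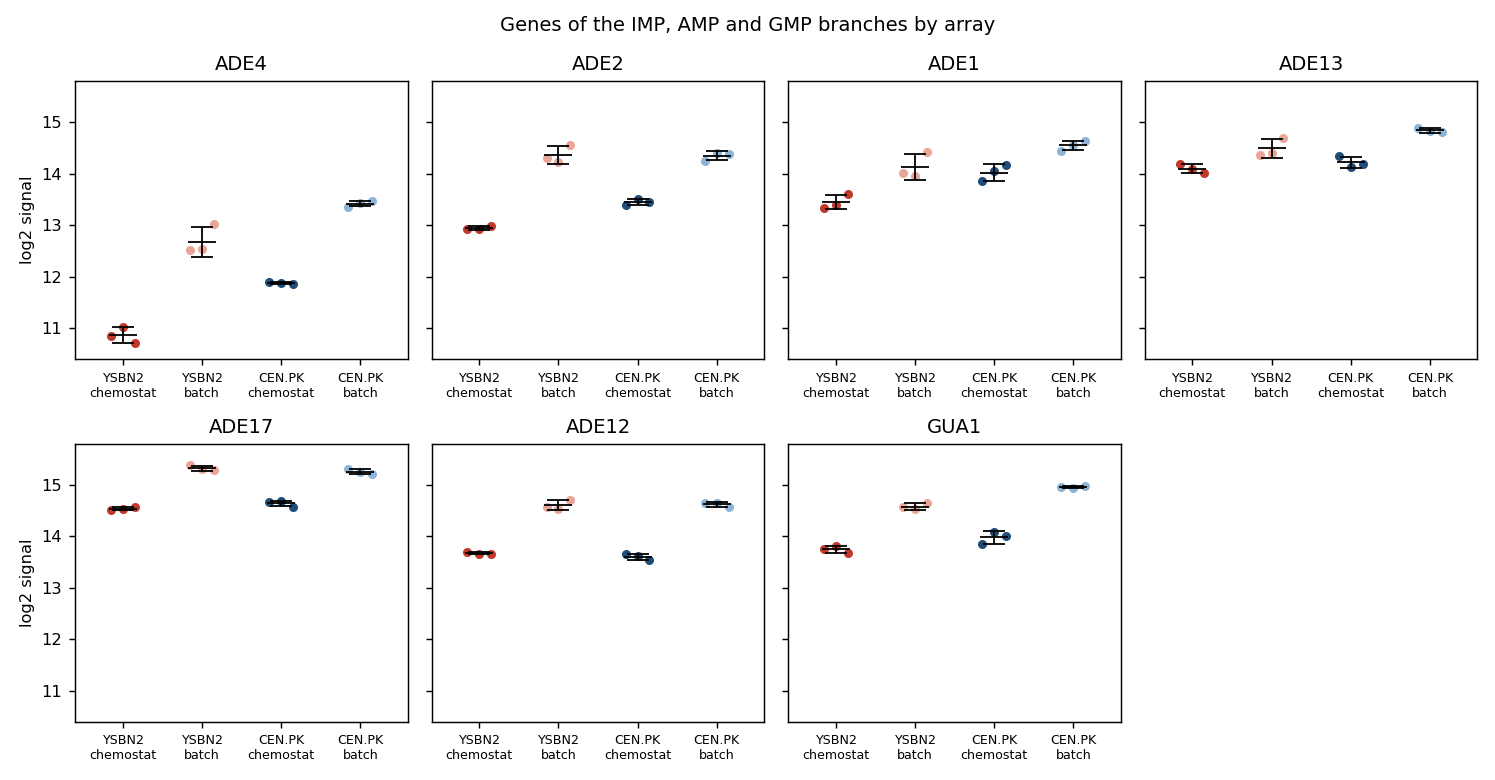
Log2 signal (vertical axis, which does not start at 0) of ADE4, ADE2, ADE1, ADE13, ADE17, ADE12 and GUA1 on each array of the 4 groups (CEN.PK is CEN.PK 113-7D); points are arrays, the long bar is the mean and the whiskers are 1 SD over 3 arrays. Chemostat arrays lie below batch arrays of the same strain for every gene, and ADE4 has the lowest levels and the widest range, from 10.72 to 13.46.

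Over the 10 genes, chemostat was lower than batch for 10 of 10 in YSBN2, with no overlap between the arrays, and 10 of 10 were called (21.9% of all probe sets were called lower and 30.6% higher, and 25.5% were lower without overlap). The median difference was -0.89, against 0.06 over all probe sets. In CEN.PK 113-7D 10 of 10 were also called lower in chemostat, without overlap (22.2% of all probe sets called lower and 33.9% higher, 28.6% lower without overlap), with a median of -0.93 against 0.09. At least 2-fold lower in chemostat were 4 of the 10 in YSBN2 and 4 in CEN.PK 113-7D (10% and 8.68% of all probe sets). In YSBN2 these were IMD2, IMD4, ADE4 and ADE2, and in CEN.PK 113-7D IMD4, IMD2, ADE4 and ADE12. As the genes were picked with these contrasts known, nothing is read from the shares. Without the third YSBN2 batch array the 10 differences ran from -9.66 to -0.29 with a median of -0.85. Shifting all arrays to a common median moved the median over all probe sets of the CEN.PK 113-7D contrast to -0.19, and quantile normalization moved it to -0.15. All 10 genes were still called lower under both, with differences from -3.04 (IMD4) to -0.81 (ADE1) under the first and up to -0.57 (ADE17) under the second.

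Between strains in chemostat, IMD2, ADE4, ADE1, ADE2 and GUA1 were called lower in YSBN2 and none of the 10 higher (15.3% of all probe sets called lower, 12.9% higher). The median of the 10 was -0.36, against -0.01 over all probe sets. The GUA1 call was the weakest, lost in 12 of 20 alternatives, and that of ADE1 was lost in 3. In batch IMD2 was called higher in YSBN2, and ADE4, ADE1, GUA1 and ADE13 lower (18.5% of all probe sets called higher, 10.5% lower). There the median was 0, against 0.02 over all probe sets, and ADE13 lost its call in 7 of 20 alternatives. The difference between culture effects was called for IMD2 and ADE2 (11.1% of all probe sets called lower, 4.34% higher). The interval of the difference lay within 1 log2 unit of 0 for 7 of the other 8, the exception being IMD4 (-0.68 ± 0.34, interval -1.45 to 0.10). The strain contrasts share the arrays of the culture contrasts, so these values are not independent of one another.

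**Figure D3:**
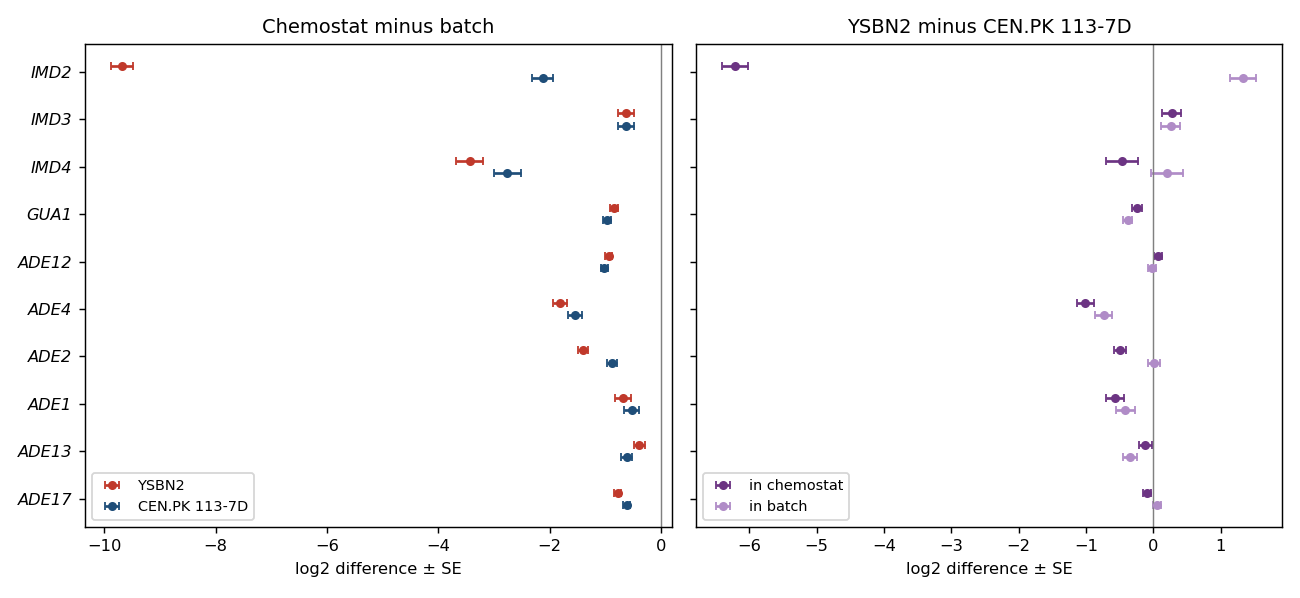
Log2 differences of the 10 genes (rows) with limma standard errors as bars: chemostat minus batch in either strain (left, YSBN2 above CEN.PK 113-7D) and YSBN2 minus CEN.PK 113-7D in either culture (right, chemostat above batch). All 20 culture differences lie below 0, and IMD2 is the gene with strain differences of opposite sign and over 1 in size, -6.21 in chemostat and 1.33 in batch.

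Of the other genes of the same path, PRS1 to PRS5, ADE6, ADE8 and ADE16 were measured, 8 of 10 listed; ADE5,7 and IMD1 were not analysed here. In YSBN2 5 of the 8 fell in chemostat and 1 rose (21.9% and 30.6% of all probe sets), with a median of -0.42. ADE8, whose product adds the first formyl group to the growing ring, read 11.68, 11.91 and 11.99 in YSBN2 chemostat and 13.70, 13.65 and 13.40 in YSBN2 batch, a difference of -1.73 ± 0.10 (limma adjusted p = 7.83e-07). ADE6, the gene of FGAM synthetase, differed by -0.95 ± 0.07 (adjusted p = 5.85e-06) and ADE16, the isozyme gene of ADE17, by -0.41 ± 0.11 (adjusted p = 0.00979). Among the PRPP synthetase genes PRS4 fell by 0.75 and PRS5 by 0.43 on the log2 scale, and PRS2 rose by 0.66 ± 0.12 (adjusted p = 0.00127). In YSBN2 the PRS5 call was lost in 3 of 20 alternatives, and the calls of PRS2 and ADE16 in 1 each.

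In CEN.PK 113-7D 5 of the 8 fell in chemostat and none rose (22.2% and 33.9% of all probe sets), with a median of -0.50. ADE8 differed by -1.23 ± 0.10 (adjusted p = 6.03e-06), ADE6 by -0.70 ± 0.07 (adjusted p = 3.44e-05), PRS4 by -0.94 ± 0.13, PRS3 by -0.61 ± 0.11 and PRS5 by -0.39 ± 0.14. PRS5 lost its call in 5 of 20 alternatives. ADE16 read 13.16, 13.09 and 12.91 in YSBN2 chemostat, 13.59, 13.55 and 13.24 in YSBN2 batch, 13.07, 13.08 and 12.94 in CEN.PK 113-7D chemostat, and 12.81, 12.75 and 12.90 in CEN.PK 113-7D batch. Its culture effect differed between the strains by -0.62 ± 0.15 (adjusted p = 0.0225, but lost in 7 of 18 alternatives and 0.121 with a common array median), with a CEN.PK 113-7D value of 0.21 ± 0.11 that was not called. ADE17, its isozyme gene, had culture differences of one sign in both strains.

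Between strains, ADE8 was lower in YSBN2 by -0.99 ± 0.10 in chemostat (adjusted p = 0.000135) and by -0.50 ± 0.10 in batch (adjusted p = 0.00542). ADE4, the first gene of the path, was likewise lower in YSBN2 in either culture. In chemostat ADE6 was also lower, by -0.41 ± 0.07 (adjusted p = 0.00337), and PRS2 higher by 0.50 ± 0.12 (adjusted p = 0.013). In batch PRS3 was lower by -0.76 ± 0.11 (adjusted p = 0.000995) and ADE16 higher by 0.64 ± 0.11 (adjusted p = 0.00172). The medians of the 8 were -0.11 in chemostat and -0.15 in batch.

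The folate one-carbon genes supply the formyl groups of the purine ring. Of the 5 measured, SHM2, ADE3, MTD1 and MIS1 fell in chemostat in both strains and SHM1 was not called in either, with medians of -1.33 in YSBN2 and -1.03 in CEN.PK 113-7D (21.9% and 22.2% of all probe sets fell). SHM2, the cytosolic serine hydroxymethyltransferase gene, read 13.80, 13.69 and 13.70 in YSBN2 chemostat, 14.95, 15.13 and 15.11 in YSBN2 batch, 14.06, 14.11 and 13.99 in CEN.PK 113-7D chemostat, and 15.20, 15.19 and 15.07 in CEN.PK 113-7D batch. ADE3, the trifunctional one-carbon enzyme gene of the cytosol, differed by -1.71 ± 0.11 in YSBN2 (adjusted p = 1.53e-06) and by -1.03 ± 0.11 in CEN.PK 113-7D (adjusted p = 3.64e-05). The difference between these ADE3 effects was -0.68 ± 0.15 (adjusted p = 0.0172, but 0.0623 with a common array median). In chemostat SHM2, ADE3 and MTD1 were lower in YSBN2 than in CEN.PK 113-7D (-0.32 ± 0.07, -0.51 ± 0.11 and -0.67 ± 0.20). The MTD1 call was lost in 6 of 20 alternatives and the SHM2 call in 1. In batch none of the 5 was called. Over all probe sets 15.3% were called lower and 12.9% higher in chemostat, and 10.5% lower and 18.5% higher in batch.

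Histidine synthesis also draws on PRPP, and it releases the purine intermediate AICAR. All 7 HIS genes measured fell in chemostat in YSBN2 (median -0.97) and in CEN.PK 113-7D (median -0.89), against 21.9% and 22.2% of all probe sets. HIS1, the gene of the first enzyme, read 13.55, 13.42 and 13.55 in YSBN2 chemostat, 15.26, 15.18 and 15.31 in YSBN2 batch, 14.36, 14.44 and 14.24 in CEN.PK 113-7D chemostat, and 15.26, 15.27 and 15.25 in CEN.PK 113-7D batch. The strains were level in batch and apart in chemostat, and the culture effects differed by -0.83 ± 0.10 (adjusted p = 0.000647). HIS4 differed likewise by -0.64 ± 0.10 (adjusted p = 0.0034) and HIS3 by -0.87 ± 0.24 (adjusted p = 0.0361, but lost in 10 of 18 alternatives). These 3 were the only calls of the 7, against 11.1% of all probe sets called lower and 4.34% higher. The differences of effects lay below 0 for 5 of the 7 and above 0 for 2, the highest at 0.83. HIS6 went the other way, with -0.62 ± 0.18 in YSBN2 and -1.45 ± 0.18 in CEN.PK 113-7D.

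**Figure D4:**
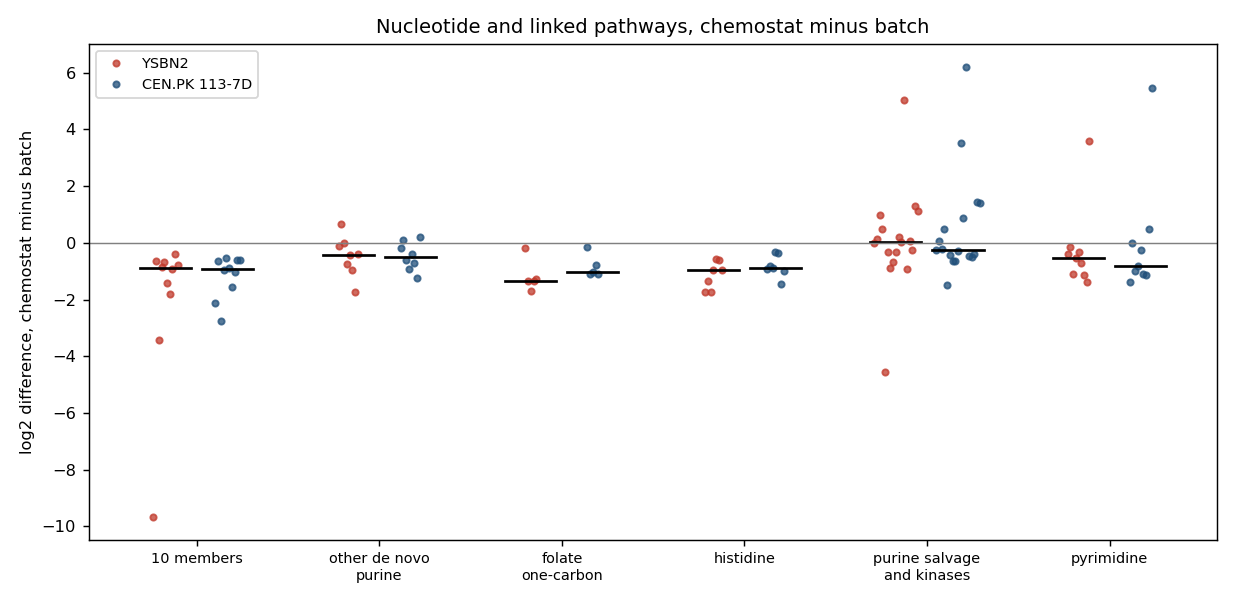
Log2 difference, chemostat minus batch (vertical axis), of single genes (points) in YSBN2 (left of each pair) and CEN.PK 113-7D (right), for the 10 purine genes and the linked lists; the black bar is the list's median. The medians of the 10 genes, -0.89 and -0.93, lie near those of the histidine genes, -0.97 and -0.89, and the salvage genes spread on both sides of 0.

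Of 17 genes of purine salvage and the nucleotide kinases, 4 rose and 6 fell in chemostat in YSBN2 (median 0.04), and 5 rose and 7 fell in CEN.PK 113-7D (median -0.27). Over all probe sets 30.6% rose and 21.9% fell in YSBN2, and 33.9% rose and 22.2% fell in CEN.PK 113-7D. The shares of the 17 that rose were thus near the background, and the shares that fell were above it. The list was chosen with earlier results known, so nothing is read from these shares. Most of the 10 purine synthesis genes, IMD2 among them, had their lowest values in YSBN2 chemostat. So did AAH1, which makes adenine deaminase and so turns adenine toward IMP and the guanine nucleotides. It read 7.50, 8.24 and 8.36 in YSBN2 chemostat, 11.98, 11.85 and 13.88 in YSBN2 batch, 11.61, 11.81 and 11.55 in CEN.PK 113-7D chemostat, and 13.17, 13.10 and 13.20 in CEN.PK 113-7D batch. Its culture difference was -4.54 ± 0.47 in YSBN2 (adjusted p = 3.8e-05), or -3.88 without the third YSBN2 batch array, and -1.50 ± 0.47 in CEN.PK 113-7D (adjusted p = 0.0216, up to 0.0599 over the alternatives). The effects differed by -3.04 ± 0.67 (adjusted p = 0.0143), or by -2.38 without that array, and in chemostat AAH1 was lower in YSBN2 by -3.63 ± 0.47 (adjusted p = 0.000585).

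PHM8, a nucleotide phosphatase gene, rose in chemostat by 5.04 ± 0.18 in YSBN2 (adjusted p = 2.54e-08) and by 6.22 ± 0.18 in CEN.PK 113-7D (adjusted p = 3.72e-09). Its batch values lay near the bottom of the range, and with values under 6 raised to 6 the PHM8 differences were 2.51 and 3.32. GUD1, the guanine deaminase gene, read 6.56, 7.99 and 6.70 in YSBN2 chemostat, 7.42, 6.78 and 6.42 in YSBN2 batch, 6.71, 6.72 and 7.86 in CEN.PK 113-7D chemostat, and 3.12, 3.40 and 4.25 in CEN.PK 113-7D batch. CEN.PK 113-7D batch was the group apart, at levels near the bottom of the range. The CEN.PK 113-7D culture difference of GUD1, 3.51 ± 0.49 (adjusted p = 0.00022), was 1.10 with values under 6 raised to 6, and no longer called (adjusted p = 0.0679). APT1, the adenine phosphoribosyltransferase gene, had culture effects that differed between the strains by 1.20 ± 0.20 (adjusted p = 0.00356), in the opposite direction to IMD2 and AAH1.

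Among the regulators, BAS1 read 11.36, 11.55 and 11.43 in YSBN2 chemostat, 12.29, 11.80 and 13.55 in YSBN2 batch, 11.53, 11.96 and 11.69 in CEN.PK 113-7D chemostat, and 11.88, 11.79 and 11.95 in CEN.PK 113-7D batch. The highest value came from the YSBN2 batch array that stood apart, 1.50 above the other 2. BAS1 fell in chemostat in YSBN2 by 1.10 on the log2 scale (adjusted p = 0.0268), with a difference of -0.60 (adjusted p = 0.0129) without that array, and the call was lost in 5 of 20 alternatives. In CEN.PK 113-7D its difference was -0.15 ± 0.36 and not called. PHO2 was called higher in chemostat in CEN.PK 113-7D (0.44 ± 0.15, adjusted p = 0.0357). That PHO2 call was lost in 9 of 20 alternatives, among them a fit with a replicate block (adjusted p = 0.0521), and its difference was -0.18 after quantile normalization. GCN4, which encodes the activator of amino acid synthesis genes, was higher in chemostat by 0.26 ± 0.07 in YSBN2 (adjusted p = 0.0128) and by 0.52 ± 0.07 in CEN.PK 113-7D (adjusted p = 0.000197). With a common array median neither GCN4 difference was called (0.12 and 0.23).

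Pyrimidine genes gave a comparison with the other nucleotide path. In chemostat 6 of 9 fell and 1, URA10, rose in YSBN2 (median -0.54), and 6 fell and 1, again URA10, rose in CEN.PK 113-7D (median -0.83), against 21.9% and 22.2% of all probe sets that fell and 30.6% and 33.9% that rose. URA8, a CTP synthase gene that is also known for a nucleotide-dependent choice of start site, read 10.42, 10.92 and 11.14 in YSBN2 chemostat, 12.29, 12.18 and 12.13 in YSBN2 batch, 10.86, 11.43 and 11.44 in CEN.PK 113-7D chemostat, and 10.52, 10.86 and 10.86 in CEN.PK 113-7D batch. YSBN2 batch was the group apart. URA8 fell in chemostat in YSBN2 by 1.37 on the log2 scale (adjusted p = 0.000437), and its culture effects differed between the strains by -1.88 ± 0.30 (adjusted p = 0.00292). In batch it was higher in YSBN2 by 1.46 ± 0.21 (adjusted p = 0.000782), beside 1.33 ± 0.19 for IMD2. Of the 9 genes URA8 and URA10 (2.20 ± 0.30) were called higher in that contrast and 4 lower. URA10 read only 5.16 to 5.62 in CEN.PK 113-7D batch, and its difference was 1.54 with values under 6 raised to 6. The URA10 call was lost in 1 of 19 alternatives. Over all probe sets 18.5% were called higher and 10.5% lower. In chemostat the strain difference of URA8, -0.42 ± 0.21, was not called, where IMD2 differed by -6.21 ± 0.19. Whether the 2 genes share a cause was not tested.

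**Figure D5:**
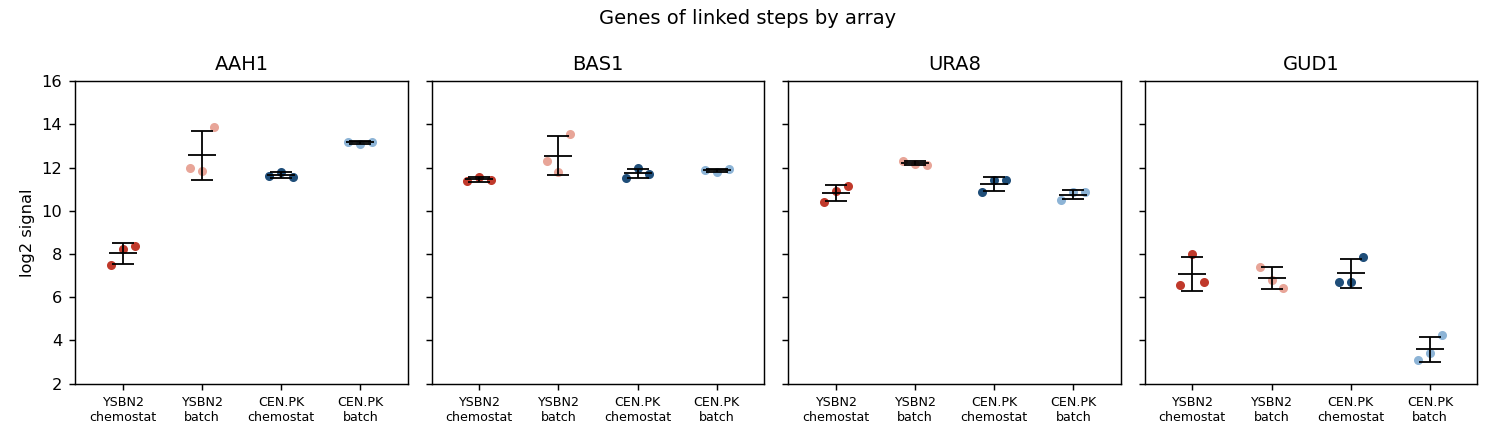
Log2 signal (vertical axis) of AAH1, BAS1, URA8 and GUD1 on each array of the 4 groups (CEN.PK is CEN.PK 113-7D); points are arrays, the long bar is the mean and the whiskers are 1 SD over 3 arrays. AAH1 is lowest in YSBN2 chemostat (7.50 to 8.36), URA8 is highest in YSBN2 batch (12.13 to 12.29), and the third YSBN2 batch array is the highest point of AAH1 and of BAS1.

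The genes whose profiles over the 12 arrays were nearest to that of IMD2, by the root mean square difference of profiles centred on their own means, were YJL213W (1.46 log2 units), GNP1 (1.52), TAT2 (1.63), MAE1 (1.64) and YIR042C (1.65), of 4959 genes compared. GNP1 and TAT2 are amino acid permease genes, and MAE1 makes the mitochondrial malic enzyme. GNP1 read 2.52, 2.73 and 2.48 in YSBN2 chemostat, 9.72, 9.48 and 11.10 in YSBN2 batch, 10.19, 10.17 and 10.36 in CEN.PK 113-7D chemostat, and 12.56, 12.37 and 12.06 in CEN.PK 113-7D batch. It was lowest in YSBN2 chemostat as IMD2 was, but higher in CEN.PK 113-7D batch than in YSBN2 batch. So were the batch means of TAT2 (11.75 against 9.73), MAE1 (14.29 against 13.53) and, by little, YJL213W (11.27 against 11.12). YIR042C was higher in YSBN2 batch, as IMD2 was (9.34 against 8.72). In YSBN2 chemostat the means of GNP1 (2.58), TAT2 (3.58) and YIR042C (3.53) lay near the bottom of the range. The nearest neighbours of ADE17 were ADH1 (0.07 log2 units), CCT5 (0.08), NUP49 (0.09), ENO2 (0.09) and PFK2 (0.10), of 4952 compared. Profiles were not scaled, and the 12 arrays spanned 9.98 log2 units for IMD2 and 0.86 for ADE17. The distances found for IMD2 and for ADE17 therefore cannot be compared. ADH1, ENO2 and PFK2 are genes of glycolysis and fermentation, CCT5 makes a chaperonin subunit and NUP49 a nuclear pore protein.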

How the data were processed

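The authors deposited 1 value per probe set and array, read here as log2 signals from their range (1.69 to 16.2); the log base is not given in the labels. R 2.6, affy and RMA are named, per the submitters' processing notes, without order or settings. The table held 5716 probe sets, 5498 with 1 gene and 218 with none, and no column was left unused. Genome build and probe sequences were not used here. The 3 arrays per group limit the precision.

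Differences were fitted with limma 3.58.1 in R 4.3.3 (1 mean per group, 12 arrays, 5 contrasts, eBayes, 8 residual degrees of freedom, 1.34 prior). Benjamini-Hochberg adjustment of the two-sided p-values ran over all 5716 probe sets, a call means an adjusted p under 0.05, and no probe set was filtered. The fit was tested on simulated data. Intervals are 95%.

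The members and gene lists were chosen with earlier results of these data known. All members and all genes of the other de novo, one-carbon and regulator lists could be named, and of other lists up to 3 called genes per direction and contrast, by size. Likeness was computed over genes with a mean of at least 6, with IMD genes (for ADE17, all 10 members) left out. The lists also cover salvage, histidine, pyrimidine and mating-type genes.

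The other settings tried were array medians set equal, quantile normalization, leaving out the 25% dimmest probe sets, values under 6 raised to 6, eBayes with trend and robust settings, the replicate number as a block, only the arrays compared, and each array left out. A fit of 6 arrays with the block was added later, after seeing the data. Replicate numbers are in the labels, with no shared day. Deviations of same-numbered CEN.PK 113-7D chemostat and batch arrays correlated at 0.50, 0.28 and 0.31, so the numbers may pair them, on the data's evidence only. Arrays of unlike numbers were not compared, so a pairing was not tested. The reported fit has no block, and the blocked fit is an alternative. For YSBN2 cultures r was 0.09, -0.17 and 0.05. Between strains it was 0.60, -0.10 and 0.20 in chemostat and 0.16, 0 and 0.15 in batch.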

Additional observations from a re-analysis of the deposited data

Results flagged for a closer look

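Both genes given here passed the test of the difference between culture effects, chemostat minus batch, in YSBN2 and in CEN.PK 113-7D. As the genes were picked with these results known, the values are a description. For IMD2 the difference of effects was -7.55 ± 0.26, from culture differences of -9.68 in YSBN2 and -2.13 in CEN.PK 113-7D. It was -4.99 with values under 6 raised to 6, and it was not lost in any alternative that kept the gene. For ADE2 the difference of effects was -0.51 ± 0.12, from -1.40 in YSBN2 and -0.89 in CEN.PK 113-7D, and it was not called with a common array median (-0.36).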

How the results depend on the processing

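The culture counts were stable: 10 of the 10 purine genes were called lower in chemostat in both strains under every setting that kept all 10, apart from ADE13 in YSBN2, lost with the replicate block in a fit of the 6 arrays compared. Leaving out the 25% dimmest probe sets removed IMD2 and left 9. Of the values of the 10 genes under all alternatives 918 kept direction and side of the threshold, 43 lost a call, 1 gained one and 13 turned sign; for the other named genes the counts were 1841, 199, 8 and 7. Every cause was not tested unless the setting itself shows it.

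Between strains in chemostat the count of called members, 5, became 3 without the dimmest probe sets, and 3 to 5 when 1 array was left out (3 without YSBN2 chemostat replicate 1, CEN.PK 113-7D chemostat replicate 2 or replicate 3). In batch it was 3 with only the arrays compared, 1 with the replicate block in those 6 arrays, and 3 to 5 with 1 array left out (5 without YSBN2 batch replicate 3, 3 without any other batch array); the other de novo genes then had 0 calls with that block. For the difference of culture effects the count of 2 became 1 with a common array median and 1 without the dimmest probe sets. It was 1 to 3 with 1 array left out (1 without the same 3 chemostat arrays), and 0 to 4 for the other de novo genes, with 1 and 0 each given by several arrays and the highest counts, 3 and 4, without YSBN2 batch replicate 3. The replicate block with 12 arrays changed no member count by over 1.5 times. In CEN.PK 113-7D culture, where the replicate numbers may pair the arrays, it kept 10 calls. Of the other named genes there it changed the call of PHO2 alone (adjusted p = 0.0521).

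With a common array median the calls of all probe sets in CEN.PK 113-7D culture were 1452 higher and 2143 lower, and with quantile normalization 1313 and 2160, against 1936 and 1271 as deposited. Some differences of named genes turned sign with the setting, and none of these was called after the turn. With a common median they were PRS2 (-0.19) and ADE16 (-0.07) in CEN.PK 113-7D culture, and ADE2 (-0.09) and ADE17 (-0.04) between strains in batch. With quantile normalization the differences that turned sign were PRS2 in CEN.PK 113-7D culture (-0.10) and ADE2 in batch (-0.02). PHO2 also turned, to -0.11 in YSBN2 and to -0.18 in CEN.PK 113-7D, where it had been called at 0.44. Leaving out 1 array gave -0.08 to 0.10 for PRS3 in YSBN2 culture. In batch the strain differences then ran from -0.06 to 0.40 for IMD4, -0.09 to 0.08 for ADE2 and -0.07 to 0.02 for ADE12, and the difference of effects of IMD3 from -0.12 to 0.13. Each member had 1 probe set, so no other probe set could be tried. Values near the bottom of an array's range limit, among others, IMD2 in YSBN2 chemostat, GUD1 in CEN.PK 113-7D batch and PHM8 in batch.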
